A study of Mus musculus with 10 samples.

Results

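Primary mouse hepatocytes that received linoleate (LA) after Neurotropin (NTP) were compared with hepatocytes that received vehicle, gene by gene. The comparison used all libraries with the labels LA+NTP (n = 2) and Vehicle (n = 2), 4 of the 10 libraries of the series, and all genes listed in any of them, 17363 of the 18055 gene IDs of the series. Hepatocytes, the parenchymal cells of the liver, came from wild-type C57BL/6 mice by collagenase perfusion and were cultured on collagen-coated plates. The LA+NTP cells received NTP 1 h ahead of 12 μM LA, which stayed on for 24 h, and a figure legend of the study gives the NTP dose as 0.4 NU/mL. The labels say neither what the vehicle was nor how many mice gave the cells, and give no age or sex. The other groups of the series, with 2 libraries each, were 12 μM LA alone, 200 μM palmitate (PA) alone, and PA after NTP (PA+NTP). LA+NTP differed from Vehicle in both agents and no group with NTP alone was analysed here, so the contributions of LA and of NTP cannot be told apart. The labels give the libraries of a group as replicates without saying whether they came from separate cultures or mice, so p-values measure the spread between these libraries, which may be technical.

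LA is an essential polyunsaturated fatty acid that hepatocytes oxidize in mitochondria and peroxisomes, elongate and desaturate, or esterify and store in lipid droplets. NTP is a protein-free extract of inflamed rabbit skin that is in clinical use against pain. Sterol levels, protein folding load and amino acid supply are each sensed in hepatocytes by a dedicated transcriptional program, run by SREBP2, by ATF6 with XBP1, and by ATF4, respectively. The genes below are ordered by such roles.

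The depth of the Vehicle libraries was 18795990 and 26900384 expected counts and that of the LA+NTP libraries 35959385 and 60046937, so the LA+NTP libraries were the deeper ones. The counts of replicates differed by more than sampling noise in both groups (chi-square per gene of 3.72 in Vehicle and 8.94 in LA+NTP). This statistic grows with depth, so its values do not compare the spread of the 2 groups. Hepatocyte markers were at high levels in all 4 libraries, with albumin (Alb) at 2594 and 2529 FPKM in Vehicle and 2792 and 2818 FPKM in LA+NTP. FPKM, fragments scaled by transcript length and by the size of the library, is used here for levels, in the order replicate 1 and replicate 2. Differences are log2 fold changes of LA+NTP over Vehicle from edgeR's quasi-likelihood fit of the counts of all 10 libraries, given with the standard error (SE). Calls required a fold change of at least 1.5 and, over the 14097 genes left by edgeR's filter on low counts, an adjusted p (Benjamini-Hochberg) under 0.05. With 2 libraries against 2, an exact permutation test of a single gene cannot go below p = 0.333, so every call rests on the spread that edgeR shares across genes and groups.

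The expression profiles of LA+NTP and Vehicle lay close together. Only 13 genes were called, 8 higher and 5 lower in LA+NTP, which is 0.0567% and 0.0355% of the tested genes. By contrast, the same fit called 11.7% of the genes higher and 7.57% lower in LA+NTP than in LA, and 2.45% higher and 1.38% lower than in PA+NTP. Without a fold threshold, 40 genes (0.284%) had an adjusted p under 0.05, 27 of them higher in LA+NTP. At an unadjusted p under 0.05, 1021 genes (7.24%) were higher and 993 (7.04%) lower.

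A missed threshold does not show that a gene was at the same level, so the interval of each difference was also examined. The 95% interval of 9964 genes (70.7%) lay within 1.5-fold in either direction. Among the 6136 tested genes with a mean of at least 10 FPKM over the 4 libraries, the share was 97.4%, and only 18 of them had an estimate of 1.5-fold or more. Larger estimates came mainly from genes with low levels. In all, 826 genes had an estimate of 1.5-fold or more, 477 higher and 349 lower, whether called or not. Over all tested genes the median log2 fold change was 0.0028, and the median of its absolute value 0.118.

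**Figure D1:**
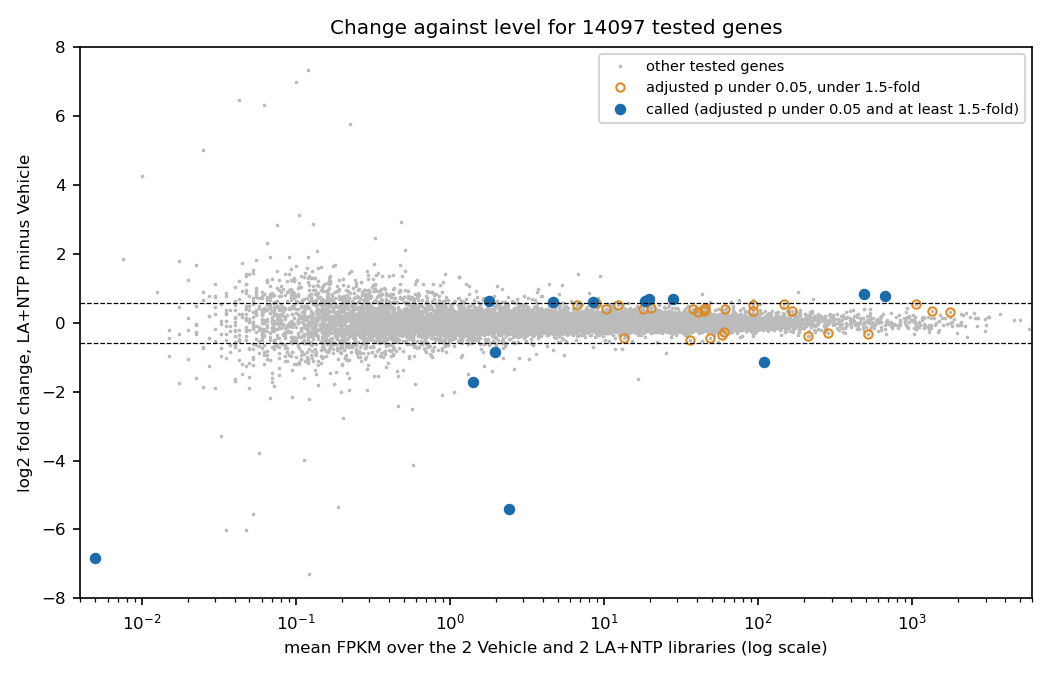
Each point is 1 of the 14097 tested genes, placed by its mean FPKM over the Vehicle and LA+NTP libraries (horizontal log axis) and its log2 fold change of LA+NTP over Vehicle (vertical axis), with called genes as filled blue points, genes under 1.5-fold with an adjusted p under 0.05 as open circles, and dashed lines at 1.5-fold. The cloud narrows toward high levels, where 5977 of the 6136 genes with at least 10 FPKM had an interval within 1.5-fold.

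The distances between libraries were small as well. The root mean square of the log2 differences over all tested genes was 0.408 between the Vehicle replicates and 0.332 between the LA+NTP replicates. Between a Vehicle and an LA+NTP library it was 0.370 to 0.422, a range that includes the distance between the Vehicle replicates. After each library had been thinned to the same depth, these values were 0.382, 0.375, and 0.391 to 0.404. Counting noise is small among genes with a mean of at least 10 FPKM over all 10 libraries. For these genes the root mean square was 0.111 and 0.110 within the groups and 0.156 to 0.168 between them. The LA+NTP libraries were farther from those of PA+NTP (0.237 to 0.292), LA (0.470 to 0.488) and PA (0.520 to 0.524) on the same measure.

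Few genes were listed in one group and not in the other. In both LA+NTP libraries and in neither Vehicle library 207 genes were listed, and 63 showed the opposite pattern. Their counts were low, with at most 59 counts summed over 4 libraries in the first set and 21 in the second, and 2 genes of each set reached a mean of 1 FPKM in the group that had them. The greater depth of the LA+NTP libraries moves with the unequal numbers of these genes, and its part in them was not tested. A gene is listed only from 0.01 FPKM upward, so an unlisted gene was not shown to be at 0.

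Of the 8 genes called higher, Thbs1 had the smallest adjusted p. It encodes thrombospondin 1, a matrix protein that binds and activates latent TGF-beta, and lies at chr2:118111876-118127133 (mm10). Thbs1 was at 21.0 and 21.99 FPKM in Vehicle and 34.8 and 34.1 FPKM in LA+NTP. Both LA+NTP libraries exceeded both Vehicle libraries by far more than the replicates differed. The log2 fold change was 0.68 ± 0.069 (SE), or 1.61-fold, with an adjusted p of 7.63e-04. The LA libraries, at 20.7 and 20.4 FPKM, and the PA+NTP libraries, at 19.1 and 19.4 FPKM, were near the Vehicle level.

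Apoa1 and Pla2g12b both belong to lipoprotein metabolism. Apoa1 (chr9:46228630-46230469) encodes the main protein of high-density lipoprotein. Its levels were 547 and 440 FPKM in Vehicle and 958 and 723 FPKM in LA+NTP, so that the groups did not overlap although the replicates differed. It rose by 0.77 ± 0.136 (SE) on the log2 scale, 1.71-fold, with an adjusted p of 0.0421. In PA+NTP it was at 276 and 231 FPKM, below both Vehicle libraries. Pla2g12b (chr10:59403420-59421976) encodes a secreted phospholipase-like protein without catalytic activity that takes part in the lipid loading of very-low-density lipoprotein. Its levels were 14.8 and 15.4 FPKM in Vehicle, 24.5 and 23.8 FPKM in LA+NTP, and 14.9 and 15.0 FPKM in PA+NTP. Pla2g12b rose by 0.68 ± 0.10 (adjusted p = 0.0169).

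Mup12 (chr4:60737381-60741416) encodes a major urinary protein, one of the pheromone carriers that mouse liver secretes in bulk. It was at 406 and 298 FPKM in Vehicle and 593 and 663 FPKM in LA+NTP, and rose by 0.84 ± 0.115 (adjusted p = 0.0153). The LA libraries were far lower, at 132 and 154 FPKM. Of the 50-base stretches of the Mup12 transcripts, 85.4% also occur in transcripts of other genes, 22 in all and led by Mup1, Mup15 and Mup2, so the division of reads among these genes is uncertain. None of the 15 tested members of the list of other major urinary proteins was called. Their median log2 fold change was -0.064, and 5 had an unadjusted p under 0.05 with lower values, or 3 lower and 1 higher with a median of 0.032 once the GC trend described below had been removed. The lowest p belonged to Mup18 at 2535 and 2639 FPKM in Vehicle and 2141 and 1706 FPKM in LA+NTP.

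The other 4 genes called higher were at modest levels and changed little more than 1.5-fold. Actc1, which encodes the actin of cardiac muscle, was at 12.9 and 15.8 FPKM in Vehicle and 22.8 and 21.98 FPKM in LA+NTP. Cyp2a12, a cytochrome P450 of the liver, was at 6.44 and 7.05 FPKM against 10.1 and 10.5 FPKM. Klhl26, a member of the Kelch-like family, many of which serve as adaptors of ubiquitin ligases, was at 3.74 and 3.71 FPKM against 5.51 and 5.83 FPKM. In each of these 3 genes both LA+NTP libraries exceeded both Vehicle libraries. Peg10, an imprinted gene derived from a retrotransposon, was at 1.42 and 1.41 FPKM in Vehicle and 2.12 and 2.22 FPKM in LA+NTP. The log2 fold changes were 0.64 ± 0.114 for Actc1, 0.61 ± 0.117 for Cyp2a12, 0.61 ± 0.118 for Klhl26 and 0.62 ± 0.119 for Peg10, with adjusted p from 0.0421 to 0.0474. Cyp2a12 shares 20.1% of its 50-base stretches with Cyp2a22.

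The 5 genes called lower included Bc1 and Zfp36l3. Bc1 (chr7:144914470-144914623) encodes a short non-coding RNA that represses translation and is best known in neurons. It was at 147 and 154 FPKM in Vehicle and 56.9 and 77.1 FPKM in LA+NTP, while the LA libraries held 156 and 214 FPKM. Bc1 fell by 1.15 ± 0.172 on the log2 scale (adjusted p = 0.0169). Zfp36l3 (chrX:53772686-53776394) encodes an RNA-binding protein of the tristetraprolin family. Its levels were 2.41 and 1.94 FPKM in Vehicle, 0.47 and 0.81 FPKM in LA+NTP, 1.19 and 1.16 FPKM in LA, and 0.92 and 0.80 FPKM in PA+NTP. It fell by 1.72 ± 0.246 (adjusted p = 0.0169), and the Vehicle libraries were the highest of these 8.

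The remaining 3 genes called lower were at low levels. Niban1, which encodes a protein induced by cell stress, was at 2.24 and 2.78 FPKM in Vehicle and 1.39 and 1.40 FPKM in LA+NTP, and fell by 0.85 ± 0.155 (adjusted p = 0.0421). A gene with the ID 627914, which no annotation used here names, had 389 and 610 counts in Vehicle and 0 and 50 counts in LA+NTP, with an adjusted p of 0.0473. It also varied widely between replicates elsewhere, with 81 and 905 counts in PA and 513 and 34 counts in PA+NTP. Ttn, the gene of the giant sarcomere protein titin, had 8 and 13 counts in Vehicle, 0.01 FPKM in each library, and was listed in neither LA+NTP library. Taken as 0 there, it was called with an adjusted p of 0.0242. At its length and the depth of the LA+NTP libraries, however, up to 14 and 24 counts would round to less than 0.01 FPKM and stay unlisted, so no difference in Ttn was shown, and without it 12 genes were called.

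**Figure D2:**
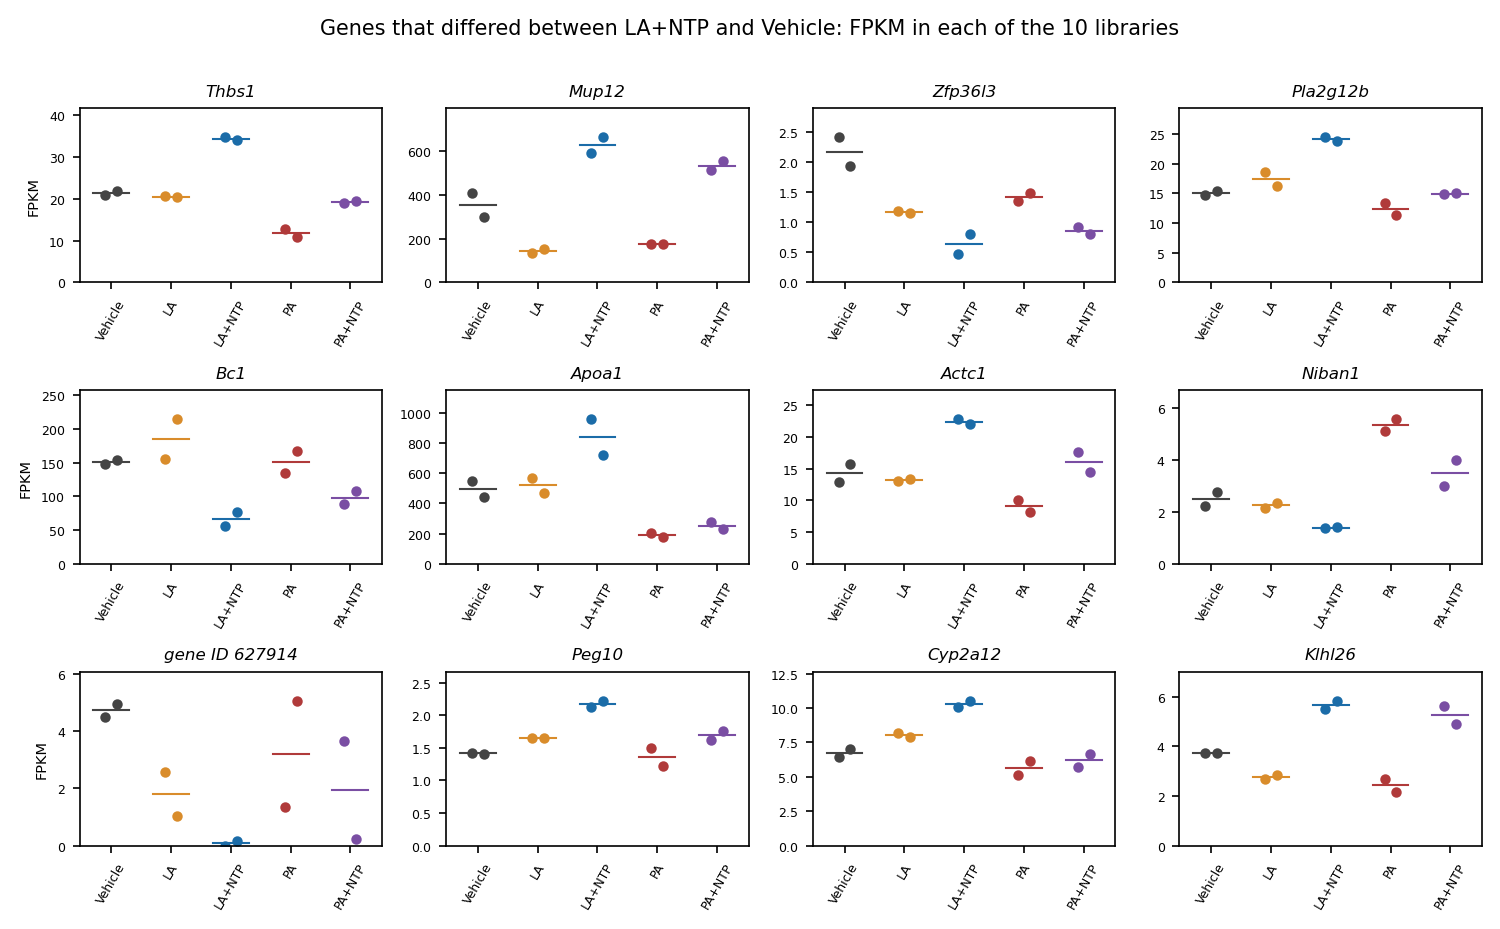
Each panel shows the FPKM of a gene called in LA+NTP against Vehicle, on a linear axis from 0, with a point for each of the 10 libraries by group and a line at the group's mean, and leaves out Ttn, which was at 0.01 FPKM or less in Vehicle and LA+NTP. Thbs1 and Pla2g12b were highest in both LA+NTP libraries, whereas Klhl26 lay above Vehicle and LA in both LA+NTP and PA+NTP.

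How firmly these genes were called differed among them. Across 25 alternative settings, Thbs1 was called in 23 and Mup12 in 20. Zfp36l3 and Bc1 were called in 18 of the 24 settings in which they had a result, Apoa1 in 16 of 25, and Pla2g12b in 16 of 24. The others were called in 9 to 12 of 23 or 24 settings. One of the settings, calls at any fold, is the main fit with a condition dropped, so all 13 genes passed it by construction. DESeq2 called 3 of the 13 and was left out of the counts of the genes for which it gave no value, which were most of them. Single libraries mattered for all 13 genes. Without Vehicle replicate 2 no gene was called, although 1191 genes had an unadjusted p under 0.05 in that edgeR fit, and the adjusted p of Thbs1 was 0.0516. Few genes were called without any other single Vehicle or LA+NTP library, and those without LA+NTP replicate 1 were mostly not among the 13. The log2 fold change of Apoa1 was 0.94 without Vehicle replicate 1 and 0.62 without Vehicle replicate 2. It was 0.56 without LA+NTP replicate 1 and 0.96 without LA+NTP replicate 2. That of Thbs1 ran from 0.66 to 0.72 over the same fits. Leaving out either LA library gave 5 calls, and leaving out either PA+NTP library gave 27.

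Set against LA alone, 10 of the 13 genes also met the call, all but Pla2g12b, Peg10 and Cyp2a12. Against PA+NTP, 7 did, namely Thbs1, Pla2g12b, Ttn, Apoa1, Niban1, Cyp2a12 and the gene with the ID 627914. These comparisons use the same LA+NTP libraries as the comparison with Vehicle and are given side by side only. The log2 fold change of Mup12 was 0.84 over Vehicle, 2.10 over LA and 0.26 over PA+NTP, and that of Apoa1 was 0.77, 0.65 and 1.76. For Thbs1 the 3 values were alike, at 0.68, 0.70 and 0.87.

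A further 27 genes had an adjusted p under 0.05 with a smaller change, 19 higher and 8 lower, with absolute log2 fold changes from 0.282 to 0.569. Most were abundant genes with close replicates. Gpx1, the glutathione peroxidase that reduces hydrogen peroxide, was at 864 and 844 FPKM in Vehicle and 1227 and 1273 FPKM in LA+NTP. It rose by 0.56 ± 0.054 (adjusted p = 7.63e-04), and the PA+NTP libraries, at 1235 FPKM each, were at the LA+NTP level while LA, at 872 and 862 FPKM, was at that of Vehicle. Tuba1a, an alpha-tubulin, was at 119 and 120 FPKM against 167 and 182 FPKM (0.55 ± 0.062, adjusted p = 0.00198). Fads2, the desaturase that takes LA as its substrate in the first step toward longer polyunsaturated fatty acids, was at 73.2 and 79.5 FPKM in Vehicle, 109 FPKM in both LA+NTP libraries, and 53.7 and 58.4 FPKM in LA. It rose by 0.51 ± 0.076 (adjusted p = 0.0169). Tkfc, the kinase of dihydroxyacetone and glyceraldehyde in fructose metabolism, rose by 0.40 ± 0.064, and Plat, the tissue plasminogen activator, by 0.57 ± 0.092.

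Among the 8 that were lower, Cyp3a13, a cytochrome P450, was at 44.0 and 40.9 FPKM in Vehicle and 29.0 and 31.1 FPKM in LA+NTP. It fell by 0.49 ± 0.071 (adjusted p = 0.0169). Hspa5, which encodes the chaperone BiP of the endoplasmic reticulum, was at 593 and 558 FPKM against 459 FPKM in both LA+NTP libraries. Hsp90b1, the HSP90 of the same compartment, was at 316 and 315 FPKM against 250 and 258 FPKM. In LA, at 818 and 779 FPKM for Hspa5 and 483 and 487 FPKM for Hsp90b1, both lay above Vehicle. In LA+NTP they fell by 0.32 ± 0.058 and 0.31 ± 0.055 (adjusted p = 0.0421 each). Eea1, an early endosome tether, fell by 0.44 ± 0.077, and Fam50a, a nuclear protein linked to splicing, by 0.36 ± 0.068.

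Small differences went with GC content. Spearman's rho between the log2 fold change and the transcript's GC content was 0.389 across 13414 tested genes, a description across genes of the same 4 libraries, which are not independent replicates. Of 5 equal groups of genes by GC content, in the lowest (33.7% to 45.2%), the median log2 fold change was -0.085, and 36 genes were higher and 475 lower at an unadjusted p under 0.05. In the highest group (55.9% to 69%), the median was 0.118, with 525 higher and 29 lower. Once a smooth GC trend had been removed from each library, rho was 0.044 and 7 genes were called. Of the 13 genes, Thbs1, Mup12, Zfp36l3, Pla2g12b, Bc1 and Ttn were still called, and Apoa1 had an adjusted p of 0.0658. Bc1 had no GC value, so its counts were not corrected and its log2 fold change was -1.151 in both fits. The removal is thus no test of Bc1, nor of the gene with the ID 627914, which also had no GC value. For Ttn, no difference was shown, as given above. For the gene lists below, counts after this removal are given wherever a count changed by more than 1 gene. After the removal 4.7% of the tested genes were higher and 4.38% lower at an unadjusted p under 0.05.

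**Figure D3:**
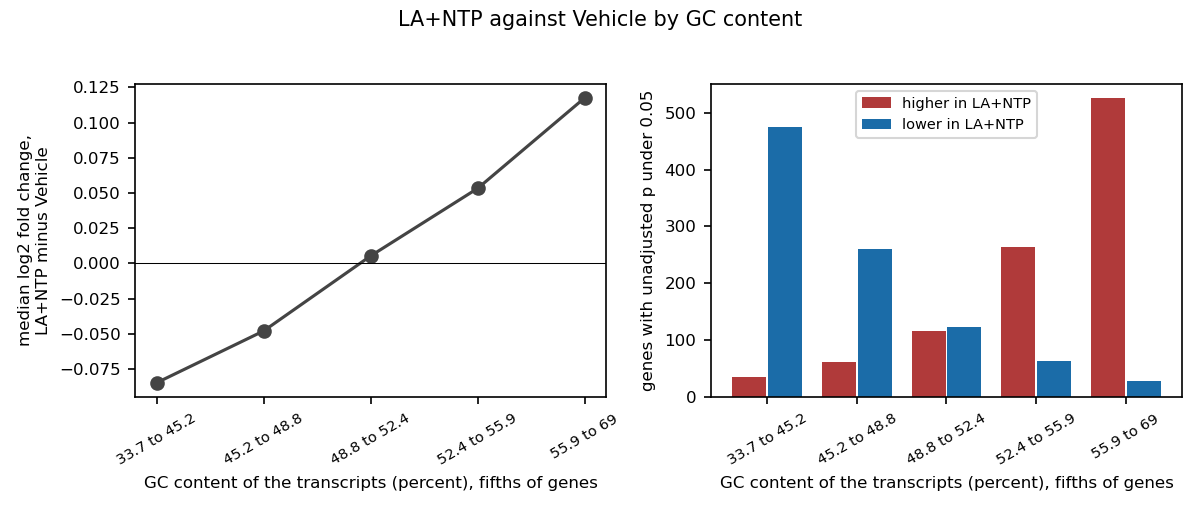
The tested genes with a GC value are divided into 5 equal groups by GC content (horizontal axis), with the median log2 fold change of LA+NTP over Vehicle of each group in the left panel and, as bars in the right panel, its number of genes higher and lower at an unadjusted p under 0.05. The median rises from -0.085 to 0.118 from the lowest to the highest group.

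Shifts too small for single genes to pass the adjusted threshold were then described by pathway, over 35 lists with 938 different genes, of which 927 were tested. Of these, 2 were called (Thbs1 and Apoa1), 13 had an adjusted p under 0.05, and 146 were higher and 80 lower at an unadjusted p under 0.05. The lists' medians were small. They lay between -0.1 and 0.1 on the log2 scale in 24 lists, at 0.1 or above in 9 and at -0.1 or below in 2. The background for every list is 7.24% of the tested genes higher and 7.04% lower at an unadjusted p under 0.05, and 26% and 24.6% with groups that did not overlap. Apart from the member with the smallest p, the members named for a list were picked after their values were seen.

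**Figure D4:**
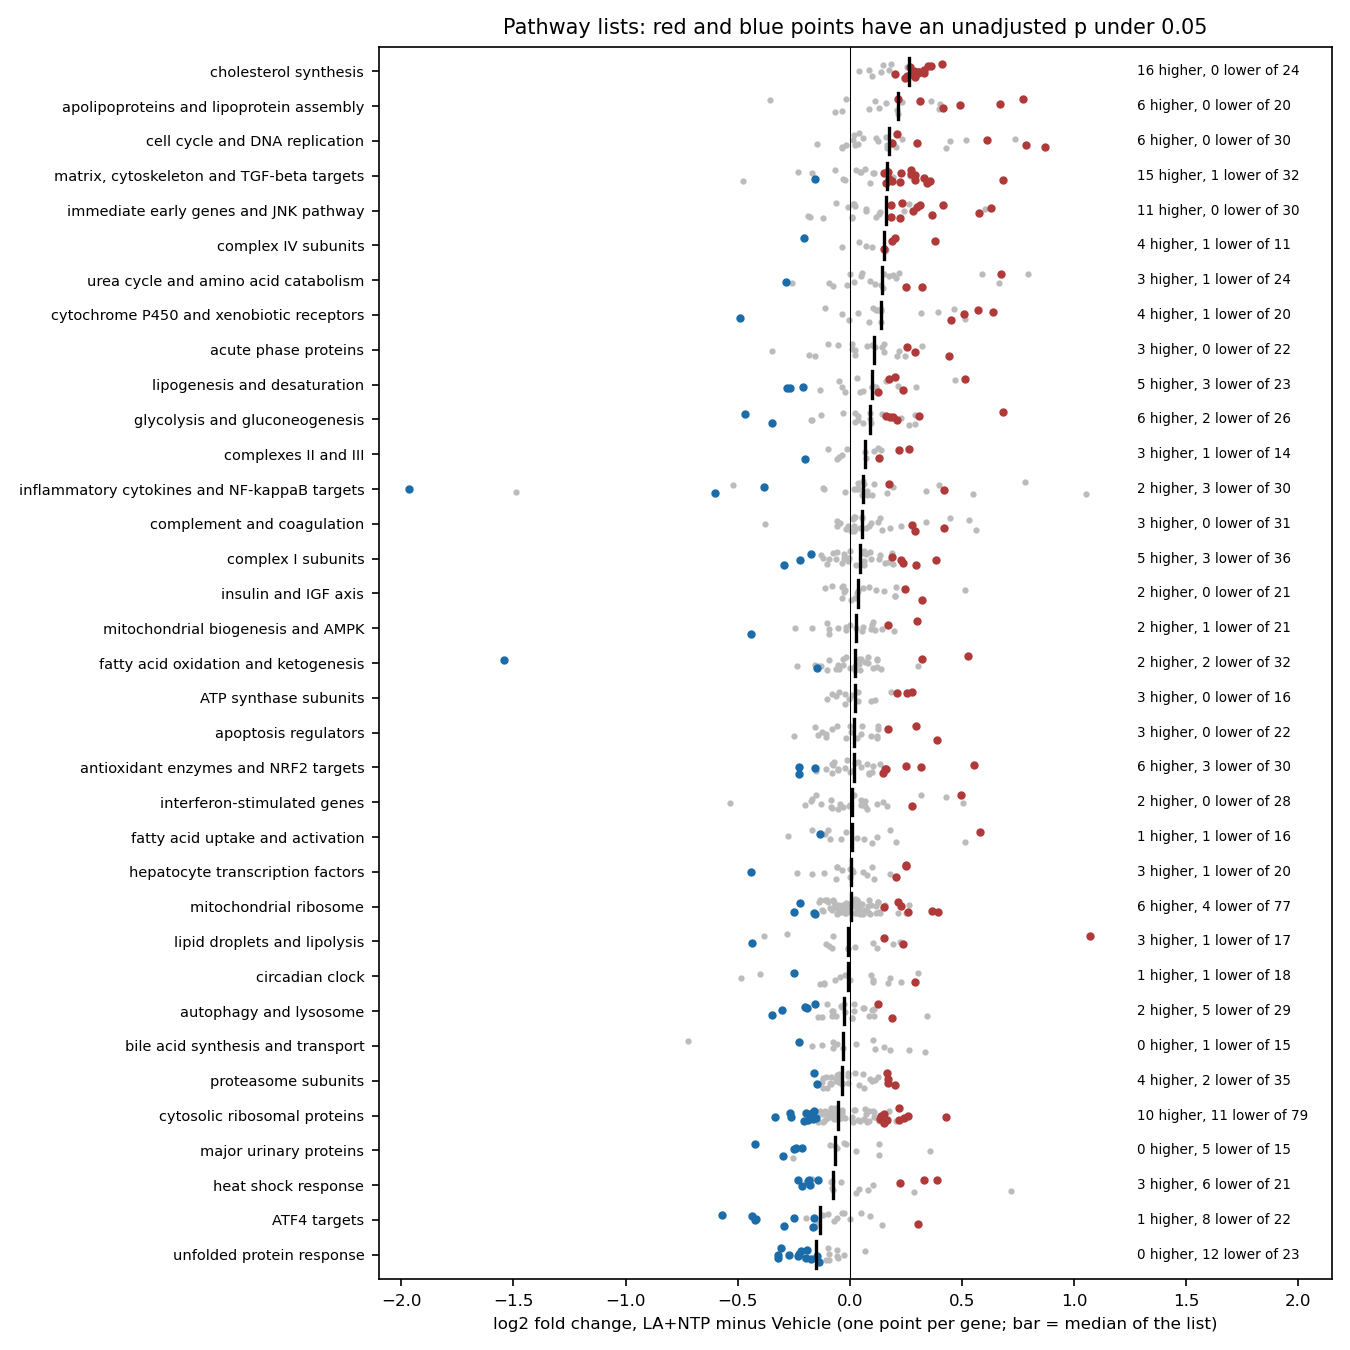
For each pathway list, the points are the log2 fold changes of LA+NTP over Vehicle of its tested members, with those at an unadjusted p under 0.05 in red (higher) and blue (lower), and the bar is their median. Cholesterol synthesis stood highest, with all members above 0, and the unfolded protein response and the ATF4 targets stood lowest.

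Cholesterol synthesis had the highest median of the lists, 0.263, and all 24 members were above 0. At an unadjusted p under 0.05, 16 members were higher and none lower, and in 22 members the LA+NTP libraries both exceeded both Vehicle libraries. Removal of the GC trend left the median at 0.244 and the counts at 16 and none. The number was 9 without Vehicle replicate 2, the lowest when a library was left out, and at most 17. No member was called, since the changes were well under 1.5-fold.

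Enzymes early and late in the route shared the direction. Hmgcs1, which forms HMG-CoA, was at 43.6 and 42.9 FPKM in Vehicle and 54.1 and 51.2 FPKM in LA+NTP (adjusted p = 0.106). Fdps, the synthase of farnesyl pyrophosphate, was at 53.4 and 55.9 FPKM against 70.1 and 69.1 FPKM, and Cyp51, the lanosterol demethylase, at 21.6 and 22.4 FPKM against 27.1 and 26.4 FPKM. In all 3 genes both LA+NTP libraries exceeded both Vehicle libraries. Dhcr7, which catalyzes the last step, was at 17.6 FPKM in both Vehicle libraries and 21.8 and 21.5 FPKM in LA+NTP (adjusted p = 0.089).

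The next lists, the unfolded protein response and the ATF4 targets, moved the other way. The regulators of these programs bind short DNA elements, and promoters of some members that carry them are shown here, with the element in capitals. The members shown were picked after their values were seen. In each list they are the 3 of 7 tested members with the element that had an unadjusted p under 0.05 with lower values. The other members with the element are not shown. The sequences are RefSeq promoters of GRCm38.p6, read 5′ to 3′ on the strand of the gene, all upstream of the start site. For the unfolded protein response, the endoplasmic reticulum stress response element was searched as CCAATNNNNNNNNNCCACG, read on both strands. The windows are at chr2:34772005-34772063 (plus strand) for Hspa5, chr10:86705513-86705676 (minus strand) for Hsp90b1, where it occurs in both orientations, and chr11:50325780-50325838 (minus strand) for Canx.
Hspa5: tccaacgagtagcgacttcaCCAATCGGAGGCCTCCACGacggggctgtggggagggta
Hsp90b1: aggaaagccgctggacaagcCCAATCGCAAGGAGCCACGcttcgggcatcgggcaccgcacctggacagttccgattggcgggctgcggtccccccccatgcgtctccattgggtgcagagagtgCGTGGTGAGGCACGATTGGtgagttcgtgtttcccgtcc
Canx: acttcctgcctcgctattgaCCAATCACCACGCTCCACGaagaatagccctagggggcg

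For the ATF4 targets the amino acid response element was searched as TGATGNAA, likewise on both strands. The windows are at chr6:7693210-7693252 (minus strand) for Asns, chr7:126625553-126625600 (minus strand) for Nupr1 and chr2:119351029-119351076 (plus strand) for Chac1, and in the last 2 the element lies in reverse. The sterol regulatory element of the cholesterol genes, searched as TCACNCCAC, is shown for Hmgcs1 at chr13:119690194-119690242 (plus strand).
Asns: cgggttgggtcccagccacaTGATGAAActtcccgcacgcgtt
Nupr1: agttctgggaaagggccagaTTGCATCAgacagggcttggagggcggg
Chac1: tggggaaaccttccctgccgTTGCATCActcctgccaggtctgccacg
Hmgcs1: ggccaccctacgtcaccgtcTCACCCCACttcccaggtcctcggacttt

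The endoplasmic reticulum stress response element was found in 7 of the 20 members of the unfolded protein response list with a promoter sequence (35.0%) and in 0.119% of all 32851 promoters of 300 bases. The amino acid response element was found in 7 of 22 ATF4 targets (31.8%) and in 3.97% of all promoters, and the sterol element in 1 of 16 cholesterol genes and in 1.24% of all. A match is a description of the letters and not a bound site. In the unfolded protein response, 3 of 7 members with it and 6 of 13 without it had an unadjusted p under 0.05 with lower values, and the medians were -0.138 and -0.146. Among the ATF4 targets the numbers were 3 of 7 and 5 of 14, with medians of -0.153 and -0.078.

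The unfolded protein response list had a median of -0.151, and 22 of its 23 members lay below 0. At an unadjusted p under 0.05, 12 members were lower and none higher, and in 17 both LA+NTP libraries lay below both Vehicle libraries. With the GC trend removed, the median was -0.168 and 11 members were lower. The number fell to 6 without LA+NTP replicate 1 and to 7 without Vehicle replicate 1. Beside Hspa5 and Hsp90b1, the chaperones and folding enzymes Pdia4, Pdia3, Hyou1, Dnajb11 and Canx were among the 12, as were the sensor Atf6, the degradation factors Sel1l and Herpud1, the secreted factor Manf and the transcription factor Ddit3. Canx, the lectin chaperone calnexin, was at 147 and 153 FPKM in Vehicle and 136 FPKM in both LA+NTP libraries. Ddit3, which encodes CHOP, was at 36.7 and 38.1 FPKM against 28.2 and 31.4 FPKM. The exception was Xbp1, with a log2 fold change of 0.07.

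Among 22 tested ATF4 targets the median was -0.132, with 8 lower and 1 higher at an unadjusted p under 0.05, and with the GC trend removed -0.169, with 9 lower and none higher. Without LA+NTP replicate 1, 5 were lower. Asns, the asparagine synthetase, was at 56.1 and 56.3 FPKM in Vehicle and 39.6 and 43.0 FPKM in LA+NTP and fell by 0.44 ± 0.084 (adjusted p = 0.0474). The serine synthesis genes Psat1 (32.1 and 30.6 FPKM against 22.8 and 23.8 FPKM) and Phgdh (40.0 and 37.9 FPKM against 31.6 and 31.7 FPKM) had the same direction. So did Nupr1, a stress-induced chromatin protein, at 28.7 and 24.7 FPKM against 17.1 and 18.4 FPKM (adjusted p = 0.0545), and Chac1, which degrades glutathione, at 10.2 and 9.70 FPKM against 7.82 and 7.05 FPKM. The single member on the higher side was the secreted stress factor Gdf15, with 33.3 and 28.7 FPKM against 41.1 and 35.1 FPKM. Atf4 itself had a log2 fold change of -0.03 and Slc7a11, the cystine transporter, of 0.00.

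In the heat shock response list, which holds the cytosolic and mitochondrial chaperones, 6 members were lower and 3 higher (median -0.074), and with the GC trend removed 3 were lower and 2 higher. Without Vehicle replicate 2, 3 were lower. Hspb1, a small heat shock protein, was at 340 and 362 FPKM in Vehicle and 423 and 458 FPKM in LA+NTP. Hsp90aa1, the inducible cytosolic HSP90, was at 453 and 478 FPKM against 406 and 414 FPKM. This list therefore had no common direction.

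The list of matrix, cytoskeleton and TGF-beta target genes, to which Thbs1 belongs, had a median of 0.164 over 32 genes. Of them, 15 were higher and 1, the integrin Itgb1, lower at an unadjusted p under 0.05, and 12 and none with the GC trend removed (median 0.117). There were 9 higher without Vehicle replicate 1 and 9 without LA+NTP replicate 1. Ccn2, which encodes connective tissue growth factor, was at 146 and 149 FPKM in Vehicle and 182 and 190 FPKM in LA+NTP and rose by 0.34 ± 0.063 (adjusted p = 0.0473). The keratins of hepatocytes, Krt8 (2081 and 1981 FPKM against 2541 and 2413 FPKM) and Krt18 (2276 and 2273 FPKM against 2740 and 2741 FPKM), had adjusted p values of 0.0570 and 0.0571. Fibronectin (Fn1) was at 324 and 342 FPKM against 375 and 374 FPKM.

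Immediate early genes and genes of the JNK pathway had a median of 0.159, with 11 of 30 higher and none lower at an unadjusted p under 0.05. With the GC trend removed the median was 0.083, with 9 higher and 1 lower. Without Vehicle replicate 2 the number higher was 5, and without LA+NTP replicate 1 it was 7. Ier2, an immediate early gene, was at 40.5 and 37.0 FPKM in Vehicle and 54.1 and 48.8 FPKM in LA+NTP and rose by 0.41 ± 0.075 (adjusted p = 0.0421). Jun, a subunit of the AP-1 transcription factor and a substrate of JNK, was at 43.8 and 41.9 FPKM against 50.2 and 50.1 FPKM. Other AP-1 genes, Fosl2, Jund, Junb and Fosb, were also among the 11. Fos, Egr1 and Myc, with log2 fold changes of 0.26, 0.07 and 0.02, were not.

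For the apolipoproteins and the assembly of lipoproteins the median was 0.215 over 20 genes, with 6 higher and none lower at an unadjusted p under 0.05. With the GC trend removed it was 0.171, with 5 higher. The count was 3 without Vehicle replicate 2 and 10 without PA+NTP replicate 1, and the median 0.101 without LA+NTP replicate 1 and 0.325 without LA+NTP replicate 2. After Apoa1, the smallest p values belonged to Apoc3, a neighbor of Apoa1, and Apoc4, a neighbor of Apoe. Apoc3, an inhibitor of lipoprotein lipase, was at 74.4 and 69.5 FPKM in Vehicle and 117 and 111 FPKM in LA+NTP (adjusted p = 0.0581). Apoc4 was at 62.8 and 51.9 FPKM against 79.6 and 80.2 FPKM, and Apoa2 at 173 and 159 FPKM against 217 and 195 FPKM. The log2 fold change was -0.02 for Apob, the structural protein of very-low-density lipoprotein, and 0.16 for Apoe.

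Lipogenesis and desaturation was a mixed list, with 5 of 23 genes higher and 3 lower at an unadjusted p under 0.05 and a median of 0.10. After removal of the GC trend, 1 was higher and 4 lower (0.079). Next to Fads2, the higher ones without that removal were Fasn, Fads1 and the transcription factor genes Srebf1 and Mlxipl. Fasn, the fatty acid synthase, was at 10.5 and 10.3 FPKM in Vehicle and 12.0 and 11.7 FPKM in LA+NTP. On the lower side, Lpin2, a phosphatidate phosphatase, was at 64.6 and 67.5 FPKM against 54.0 and 54.1 FPKM and fell by 0.28 ± 0.053 (adjusted p = 0.0473). Acaca, the acetyl-CoA carboxylase that precedes Fasn in the pathway, was at 10.5 and 11.2 FPKM against 9.06 and 8.90 FPKM, and Me1, the malic enzyme, was the third. Scd1, the stearoyl-CoA desaturase, had a log2 fold change of 0.03.

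The handling of fatty acids differed little. In fatty acid oxidation and ketogenesis 2 of 32 genes were higher and 2 lower at an unadjusted p under 0.05 (median 0.024), in fatty acid uptake and activation 1 and 1 of 16 (0.007), and in lipid droplets and lipolysis 3 and 1 of 17 (-0.008). In oxidation the smallest p belonged to Acaa1b, a peroxisomal thiolase, at 11.1 and 10.6 FPKM in Vehicle and 15.9 and 15.2 FPKM in LA+NTP (0.53 ± 0.139, adjusted p = 0.109). Fgf21, a hepatokine of fasting, was at 0.86 and 0.52 FPKM against 0.27 and 0.20 FPKM (adjusted p = 0.289). Cideb, which acts in lipid droplets and in the lipidation of lipoproteins, was at 72.7 and 67.5 FPKM against 85.0 and 79.7 FPKM (adjusted p = 0.154).

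The mitochondrial lists were close to no change. The median log2 fold change was 0.044 for complex I (5 of 36 genes higher and 3 lower at an unadjusted p under 0.05), 0.069 for complexes II and III (3 and 1 of 14), 0.022 for ATP synthase (3 and none of 16), 0.003 for the mitochondrial ribosome (6 and 4 of 77) and 0.029 for mitochondrial biogenesis and AMPK (2 and 1 of 21). With the GC trend removed, the mitochondrial ribosome had 4 higher and 2 lower, and biogenesis none and 1. Complex IV, the cytochrome c oxidase, was the highest of them, with a median of 0.154, 4 of 11 genes higher and 1 lower. With the GC trend removed it was 0.111, with 2 higher and 1 lower, and 1 was higher without Vehicle replicate 1 or without LA+NTP replicate 2, and the latter gave a median of 0.049. In complex I, the number higher was 1 without Vehicle replicate 2 or without LA+NTP replicate 2.

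The 4 genes that the study's text takes up from its expression data, Ppargc1b, Ogg1, Cox7c and Cox8a, were at or slightly above the Vehicle level. Ppargc1b, which encodes the coactivator PGC-1β, was at 1.27 and 1.17 FPKM in Vehicle and 1.22 and 1.37 FPKM in LA+NTP, so the groups overlapped (0.10 ± 0.187, adjusted p = 0.864). Its 95% interval ran from -0.30 to 0.50. Ogg1, a glycosylase that removes oxidized guanine from DNA, was at 9.96 and 9.70 FPKM against 11.2 and 12.8 FPKM (0.30 ± 0.118, adjusted p = 0.268). Cox7c was at 378 and 348 FPKM against 434 and 505 FPKM (0.38 ± 0.094, adjusted p = 0.0894), and Cox8a, a subunit of the same complex, at 208 and 197 FPKM against 221 and 229 FPKM (0.16 ± 0.088, adjusted p = 0.453). For the last 3 genes both LA+NTP libraries exceeded both Vehicle libraries. In the LA libraries all 4 genes were far lower, for instance Cox7c at 179 and 178 FPKM, and all 4 were called higher in LA+NTP than in LA.

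The lists of hepatocyte functions other than lipid metabolism had medians from -0.030 to 0.144. Those of the cytochrome P450 and urea cycle lists were similar in size to that of the ATF4 targets (-0.132). In these 2 lists 16 of 20 and 18 of 24 genes lay above 0. The cytochrome P450 list had a median of 0.140, with 4 of 20 genes higher and 1 lower (Cyp3a13) at an unadjusted p under 0.05, and the urea cycle and amino acid catabolism one of 0.144, with 3 of 24 higher and 1 lower (Cth, which makes cysteine). In glycolysis and gluconeogenesis 6 of 26 were higher and 2 lower (0.091), led by the glucose transporter Slc2a1 at 22.3 and 22.6 FPKM in Vehicle and 26.9 and 28.5 FPKM in LA+NTP (adjusted p = 0.0588), and with the GC trend removed 3 were higher and 3 lower. Acute phase proteins (3 higher of 22, median 0.107) and complement and coagulation (3 of 31, 0.054) were led by Itih3 and Serpinf2, and of the hepatocyte transcription factors 3 of 20 were higher and 1 lower (0.006), or none and 3 with the GC trend removed. Bile acid synthesis and transport (none higher and 1 lower of 15, -0.030) was led by the canalicular exporter Abcc2, at 91.2 and 91.5 FPKM against 76.2 and 79.6 FPKM. Without Vehicle replicate 2 no member was higher in the urea cycle, acute phase and complement lists, and without LA+NTP replicate 2 the complement list had 7 higher. The median of the urea cycle list was 0.065 without Vehicle replicate 2, 0.069 without LA+NTP replicate 1, 0.281 without Vehicle replicate 1 and 0.251 without LA+NTP replicate 2, and that of the acute phase list 0.023 without Vehicle replicate 2 and 0.194 without Vehicle replicate 1.

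In the antioxidant enzymes and NRF2 targets, 6 of 30 genes were higher and 3 lower (median 0.018). Beside Gpx1, the glutathione S-transferase Gstm1 was at 1591 and 1560 FPKM in Vehicle and 1975 and 1943 FPKM in LA+NTP and rose by 0.32 ± 0.057 (adjusted p = 0.0421). Without Vehicle replicate 1, Vehicle replicate 2 or LA+NTP replicate 2, only 1 was lower. In the fit of all libraries the 3 lower genes were Txnrd1, Gclc and Gsr, which keep thioredoxin and glutathione reduced or make glutathione. Gclc, the catalytic subunit of the rate-limiting enzyme of glutathione synthesis, was at 247 and 255 FPKM against 199 and 229 FPKM (adjusted p = 0.262).

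Cell cycle and DNA replication had a median of 0.176, and 26 of 30 genes lay above 0. In 18 genes both LA+NTP libraries exceeded both Vehicle libraries, and in none did both lie below. The smallest p belonged to Cdk4, a kinase of the cell cycle, at 108 and 110 FPKM in Vehicle and 123 and 124 FPKM in LA+NTP (adjusted p = 0.138). At an unadjusted p under 0.05, 6 genes were higher and none lower. They included Aurka, the mitotic kinase, at the low levels of 1.29 and 1.46 FPKM in Vehicle and 2.23 and 1.99 FPKM in LA+NTP (adjusted p = 0.252). The number was 2 without Vehicle replicate 1 or LA+NTP replicate 2, and 3 without Vehicle replicate 2. Inflammatory cytokines and NF-kappaB targets (2 higher and 3 lower of 30, median 0.059), interferon-stimulated genes (2 higher of 28, 0.010), autophagy and lysosome (2 higher and 5 lower of 29, -0.028), circadian clock (1 and 1 of 18, -0.010), insulin and IGF axis (2 higher of 21, 0.038) and apoptosis regulators (3 higher of 22, 0.019) had no more than a few members past an unadjusted p of 0.05. In the fit without the GC trend, the inflammatory list had 5 higher and 2 lower, the autophagy list none higher and 6 lower, and the apoptosis list 2 of each. The autophagy list was led by Optn, an autophagy receptor, at 36.3 and 38.5 FPKM against 30.5 and 28.2 FPKM (adjusted p = 0.0545). Cytosolic ribosomal proteins were divided, with 10 of 79 higher and 11 lower (-0.051), and 3 and 8 with the GC trend removed. Without Vehicle replicate 1, 3 were higher and 4 lower. In the proteasome, 4 of 35 were higher and 2 lower (-0.037), and none in either direction with the GC trend removed.

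Side by side with the other groups, the lists with the clearest shifts lay at different places. Each value here is a library's median difference from the Vehicle mean in log2 CPM (counts scaled by library size), over the list's members. For cholesterol synthesis it was 0.300 and 0.249 in the LA+NTP libraries, 0.004 and -0.004 in Vehicle, and 0.055 and -0.169 in LA. For the unfolded protein response it was -0.177 and -0.167 in LA+NTP and 0.233 and 0.216 in LA, so that the LA+NTP and LA libraries lay on opposite sides of Vehicle. The median log2 fold change of the unfolded protein response was -0.423 over LA and -0.320 over PA+NTP, and 5 of its 23 genes (21.7%) were called lower than in LA, beside 7.57% of all tested genes. That of cholesterol synthesis was 0.228 over LA and 0.355 over PA+NTP, with 4 of 24 genes (16.7%) called higher in each, beside 11.7% and 2.45% of all tested genes. All these comparisons share the LA+NTP libraries.

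**Figure D5:**
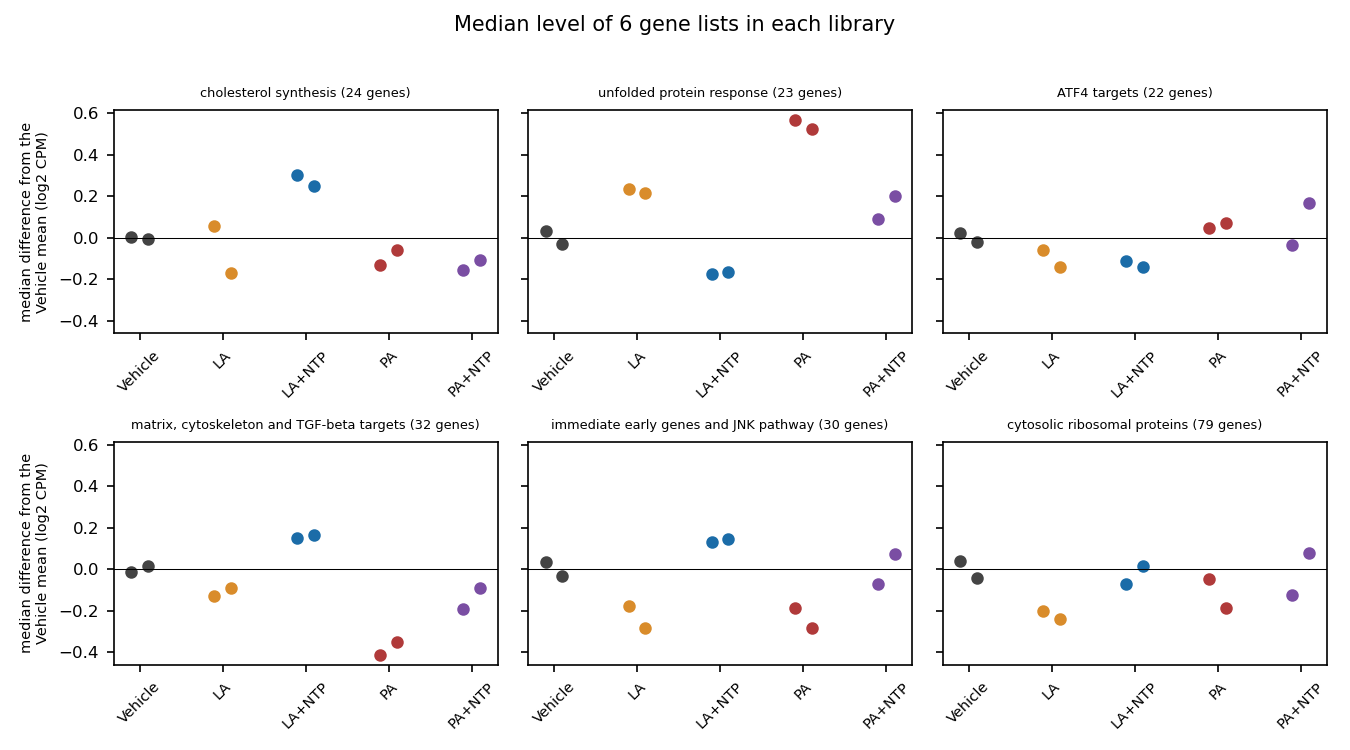
For 6 gene lists, each point is a library's median difference from the Vehicle mean in log2 CPM over the list's members, by group. LA+NTP lay above Vehicle for cholesterol synthesis (0.300 and 0.249) and below it for the unfolded protein response (-0.177 and -0.167), for which both LA libraries lay above it (0.233 and 0.216).

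Few markers of other liver cell types had an unadjusted p under 0.05. In bulk samples, fewer cells of a type and less RNA per cell cannot be told apart. Of 10 hepatocyte markers, 5 were higher at an unadjusted p under 0.05 and none lower, and their summed FPKM, which includes Apoa1, was 8657 and 8159 in Vehicle and 9984 and 9442 in LA+NTP. This sum moved with the higher values of the apolipoproteins, and its part in them was not tested. Of the markers of Kupffer cells and macrophages, 10 of 12 were tested and 1, C1qb, had an unadjusted p under 0.05 with higher values, and the sum was 219.8 and 220.7 FPKM against 197.9 and 210.9 FPKM. Most of that sum was Cd68, at 203 FPKM in both Vehicle libraries against 177 and 190 FPKM, whereas 8 of the 10 tested markers lay above 0 with a median log2 fold change of 0.292, among them C1qa, C1qb and C1qc, at 1.85 FPKM or less in LA+NTP. In 6 markers the groups did not overlap with LA+NTP higher and in 1 with LA+NTP lower. The part of macrophages in the results above was not tested, and the Kupffer cell marker Clec4f was at 0.22 and 0.15 FPKM against 0.29 and 0.13 FPKM. None of the 10 stellate cell and 10 sinusoidal endothelial markers had an unadjusted p under 0.05, with sums of 32.0 and 33.0 FPKM against 34.7 FPKM in both, and of 55.0 and 53.9 against 55.4 and 56.0 FPKM. Cholangiocyte markers summed to 616 and 583 FPKM against 693 and 664 FPKM, with 4 of 8 tested and Sox9 higher at an unadjusted p under 0.05. Most of that sum was Spp1, at 603 and 572 FPKM against 678 and 650 FPKM (unadjusted p = 0.119). Krt19 and Epcam were at 0.92 FPKM or less in these libraries. Only 3 of 12 lymphocyte, 2 of 8 neutrophil and 1 of 7 erythroid markers passed the filter on low counts, with none at an unadjusted p under 0.05, and the neutrophil genes S100a8 and S100a9 were listed in none of the 4 libraries.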

How the data were processed

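The sample labels gave each library's condition and replicate number, and a figure legend of the study the NTP dose. The authors aligned reads with HISAT and Bowtie2 to mm10, per the submitters' processing notes, and quantified genes with RSEM, without versions given in the sources used here. The deposited expected counts are RSEM's estimated counts per gene without normalization between libraries. The deposited FPKM values were scaled by the authors for transcript length and library size, and only genes with at least 0.01 FPKM are listed in a library, so a missing gene was taken as 0, although a long gene can hold some counts and stay unlisted. The series totals ranged from 13142588 to 60046937 expected counts.

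Counts were rounded and fitted with edgeR 4.0.16 (R 4.3.3) over the 5 groups, with TMM factors from 0.977 to 1.037, filterByExpr, the quasi-likelihood test and Benjamini-Hochberg adjustment. The 95% intervals used the same fit. Symbols and gene positions came from RefSeq (17998 IDs matched, 11 through an accession, 46 unmatched). GC content and shared stretches of 50 bases came from GENCODE M21, and promoters from RefSeq GRCm38.p6. On simulated counts for LA+NTP against Vehicle over 13913 genes, 24 of 66 genes changed 1.5-fold, 52 of 66 changed 2-fold and 60 of 65 changed 3-fold were recovered, with 11 false calls. The main fit did not pair libraries by replicate number. Named genes were all genes called, the 4 taken up in the study's text, the member of each list with the smallest unadjusted p if under 0.05, and the 5 genes with the smallest p in each direction among those not called, with a mean of at least 1 FPKM. Values of some genes under this rule are not reported here. The comparison, its members and the lists were chosen with earlier results of these data known. Alternatives comprised scaling by library size, DESeq2 1.42.0, a filter at 1 FPKM or none, calls at any fold, NOISeq's rule with a probability of 0.95 or 0.8, limma 3.58.1 on log2(FPKM + 1) and log2(FPKM + 0.1), a fit of 4 libraries, a replicate block, removal of a GC or length trend (loess, span 0.4), thinning, and leaving out each library.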

Additional observations from a re-analysis of the deposited data

How the results depend on the processing

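The number of genes called in LA+NTP against Vehicle, 13 (8 called higher and 5 called lower), varied most with the processing. Within 1.5 times were library-size scaling and removal of a length trend (15 each) and thinning to equal depth (13, of which 10 higher and 3 lower). Similar totals were not always the same genes. Of the 13 genes of the main fit, library-size scaling called 13, removal of a length trend 12 and thinning 8. DESeq2 called 5 (5 higher and 0 lower, with 1564 genes at an unadjusted p under 0.05), of which 3 were among the 13. A mean of at least 1 FPKM gave 7 (5 and 2), and removal of the GC trend 7 (4 and 3). The fit on log2(FPKM + 1) with limma called 2 (1 and 1, with 1915 genes at an unadjusted p under 0.05), and that on log2(FPKM + 0.1) called 1 (1 and 0, with 1858). No filter on low counts gave 67 (39 and 28), no fold threshold 40 (27 and 13), and the fit of only the 4 libraries 37 (21 and 16). The NOISeq rule, which gives a probability and no p, called 0 (0 and 0) at 0.95 and 28 (18 and 10) at 0.8. Of these 28, 6 were among the 13. The labels do not say whether the replicate numbers pair the libraries. The replicate deviations of Vehicle and LA+NTP had an r of -0.069 over all tested genes, which does not settle pairing for single genes. Apoa1 was higher in replicate 1 than in replicate 2 in every group, for instance at 571 and 468 FPKM in LA. The replicate block gave 24 calls (17 and 7), or 23 (15 and 8) with the GC trend also removed. With the block alone, the adjusted p of Apoa1 was 2.74e-05. Leaving out 1 library gave 0 to 27 calls, 0 to 17 higher and 0 to 10 lower. The cause of these differences was not tested. The number of genes with an interval within 1.5-fold ran from 8983 to 10260, and of the 13 genes, 7 to 13 were called over LA and 5 to 9 over PA+NTP. For the 55 named genes, 1213 values under alternatives kept their direction and side of the threshold, 124 lost the call, 18 gained it, and 2 changed sign. Only the 13 called genes could lose the call, and they were called in 9 of 24 settings (Niban1) to 23 of 25 (Thbs1). These counts include the setting at any fold, which keeps all 13 by construction. Most of the 1213 values came from named genes that were not called in the main fit. Both changes of sign were for Ttn, with a log2 fold change of 5.644 under the NOISeq rule, which sets a value of 0 to a constant. On the simulated counts, 24 of 66 genes changed 1.5-fold were recovered. A call also requires an estimate of at least 1.5-fold, so genes near that change can miss it at any depth or replication. The recovery therefore does not measure a limit of depth or replication.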
